A study of Mus musculus with 30 samples.

Results

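The SOCS proteins, the Twist repressors, the NF-kappaB inhibitors A20, IkappaB-alpha and IkappaB-zeta and the mRNA decay factor tristetraprolin form the feedback arm that is attributed to TAM receptor signaling. The 10 genes that encode them (*Socs1*, *Socs2*, *Socs3*, *Cish*, *Twist1*, *Twist2*, *Tnfaip3*, *Nfkbia*, *Nfkbiz* and *Zfp36*) were taken by exact symbol from a table of 55573 genes, and each symbol matched 1 row. Polyadenylated RNA was sequenced from the retinal pigment epithelium (RPE), the pigmented layer behind the photoreceptors, and from bone marrow-derived macrophages (BMDMs) of C57BL/6J wild-type mice (B6 WT) and of 3 lines with a disrupted *Mertk* gene. The RPE came from mice at postnatal day 25 (P25) and comprised 6 libraries each of B6 WT and *Mertk*-/-V1 and 3 each of *Mertk*-/-V2 and *Mertk*-/-V3. BMDMs were grown from marrow of adult mice for a week in medium conditioned by L929 cells, with 3 libraries of each of the 4 genotypes. The labels call the libraries of a group biological replicates, and every p-value of a comparison between groups measures the spread between them. Permutation p-values of correlations do not, since libraries were shuffled across genotypes.

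The knockout lines differ in allele and in background. *Mertk*-/-V1 lacks an exon of the kinase domain, keeps a neomycin cassette in the locus, was made in 129P2 embryonic stem cells and retains a 129P2 segment of chromosome 2 after backcrossing to C57BL/6J. *Mertk*-/-V2 lost a kinase domain exon when a floxed allele was excised by tamoxifen-driven Rosa26-ERT2-Cre, which was then bred out, and *Mertk*-/-V3 lost a pair of exons to CRISPR/Cas9 in the egg. Both were made in C57BL/6NJ embryos or eggs and keep part of that genome, so allele, cassette and background cannot be told apart within a line. RPE was shaken off the opened eyecup into RNA-preserving solution, which can carry neighboring cells along, and in such bulk samples fewer cells of a type and less RNA per cell cannot be told apart.

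MERTK is a receptor tyrosine kinase that recognizes phosphatidylserine on apoptotic cells and shed photoreceptor tips through bridging ligands. In macrophages and dendritic cells TAM receptors are known to raise *Socs1*, *Socs3* and the Twist genes, whose products curb cytokine receptor and NF-kappaB signaling. SOCS proteins and CIS bind activated cytokine receptors or JAK kinases and are themselves transcribed by STATs, A20 and IkappaB-alpha are induced by NF-kappaB and then restrain it, and tristetraprolin shortens the life of cytokine mRNAs such as that of *Tnf*.

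Reads on genes ranged from 14137666 to 34124049 per RPE library (median 22495677.5) and from 16629659 to 25653814 per BMDM library (median 20383090), and no pair of libraries held identical values. BMDMs had no read of *Rpe65*, *Lrat* or *Ttr*, which mark the RPE, and the summed level of 10 macrophage markers lay between 307071 and 335404 normalized counts, that is, reads divided by a size factor for the library. In RPE the summed level of 9 rod markers ranged from 34742 to 867939, and the sum of 8 RPE markers from 197365 to 864015. Whole-gene *Mertk* was lower in RPE of *Mertk*-/-V1 (log2 fold change -1.46, adjusted p = 0.00267) and of *Mertk*-/-V3 (-2.01, adjusted p = 0.00222) than in B6 WT. It was not lower in the libraries labelled *Mertk*-/-V2 (0.39, adjusted p = 0.954), where reads on the remaining exons can still be counted, so the count does not check the loss of 1 exon. RPE replicates 1 to 3 and 4 to 6 of B6 WT and *Mertk*-/-V1 differed in rod level, and results that rest on both sets are also given within each.

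Promoter windows show which transcription factor motifs lie before a RefSeq transcript start of the genes whose values are followed most closely here. A RefSeq table (GRCm38.p6) held 250 bases before the start for 8 of the 10 genes, in 9 windows, and not for *Socs2* and *Nfkbiz*. Capitals mark the matches in the stretches below, which run 5′ to 3′ on the minus strand and lie outside annotated exons, except the *Zfp36* stretch, which is a 30-base site inside an annotated exon. The *Socs3* and *Zfp36* windows and the *Tnfaip3* stretch lie within the span that GENCODE annotates as the gene. The RefSeq start of the *Socs3* window is not a GENCODE transcript start. A further *Tnfaip3* window (chr10:19011964-19012213) holds no match. The *Socs3* stretch (chr11:117969452-117969616) holds an EGR match and then a GAS element, the STAT site TTCNNNGAA. The *Tnfaip3* stretch (chr10:19015411-19015547) holds an AP-1 match followed by a pair of kappaB matches, and the *Nfkbia* stretch (chr12:55492648-55492897) holds 1 kappaB match. The *Zfp36* stretch (chr7:28379267-28379296) holds a CArG box, the site of serum response factor.
Socs3: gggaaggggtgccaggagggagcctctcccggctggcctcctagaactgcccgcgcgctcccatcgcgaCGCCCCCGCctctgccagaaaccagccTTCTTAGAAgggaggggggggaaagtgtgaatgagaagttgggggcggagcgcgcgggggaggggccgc
Tnfaip3: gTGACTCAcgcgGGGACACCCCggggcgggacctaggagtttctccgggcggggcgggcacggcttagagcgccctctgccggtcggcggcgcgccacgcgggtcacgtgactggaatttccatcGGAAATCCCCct
Nfkbia: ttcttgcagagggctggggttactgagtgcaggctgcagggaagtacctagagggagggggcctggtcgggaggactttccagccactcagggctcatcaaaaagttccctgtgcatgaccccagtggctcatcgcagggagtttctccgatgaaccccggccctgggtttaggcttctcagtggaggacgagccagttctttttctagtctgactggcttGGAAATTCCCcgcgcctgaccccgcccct
Zfp36: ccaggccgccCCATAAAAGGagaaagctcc

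Searched on both strands, the GAS motif TTCNNNGAA was present in 7.02% of all 32851 windows and in 2 of the 9 windows of the feedback genes (*Socs3* and *Zfp36*). The kappaB consensus was present in 5.93% of all windows, in 1 window of *Tnfaip3* and in that of *Nfkbia*. The CArG box was present in 1.47% of all windows and in that of *Zfp36*, and AP-1 (TGACTCA or TGAGTCA) in 4.46% and in the same *Tnfaip3* window. The EGR motif GCGNGGGCG was present in 4.7% of all windows and in 3 of the 9, those of *Socs3*, *Twist2* and *Zfp36*, whereas the CRE TGACGTCA, present in 1.55%, was in none of the 9. A match is a description of these letters and not of binding.

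In B6 WT RPE the genes were ordered by RPKM, reads scaled by the exon length of the gene and by the reads on genes of the library. The transcript of *Nfkbia*, which encodes IkappaB-alpha, led with a mean of 17.4 (range 12.97 to 19.8), ahead of *Zfp36* with 9.92, *Tnfaip3* (A20) with 6.996 and *Nfkbiz* (IkappaB-zeta) with 5.38. *Socs3* with 2.53 and *Cish* with 2.34 came next, followed by *Twist1* with 0.834, *Socs2* with 0.826 and *Socs1* with 0.586. *Twist2* was lowest with 0.0585 (range 0.0172 to 0.114). Ranges of neighbors in this order overlapped except between *Cish* and *Twist1* and between *Socs1* and *Twist2*. In B6 WT BMDMs *Zfp36* led with 46.4 on the same scale, before *Nfkbia* with 25.2, *Tnfaip3* with 4.73, *Nfkbiz* with 1.55 and *Socs3* with 1.10. *Socs1* (0.361), *Cish* (0.124) and *Socs2* (0.0518) were low, and no neighboring ranges overlapped. *Twist1* and *Twist2* had 0 reads in all 12 BMDM libraries, which by counting error alone allows each gene up to 3 reads over the 12 together.

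**Figure D1:**
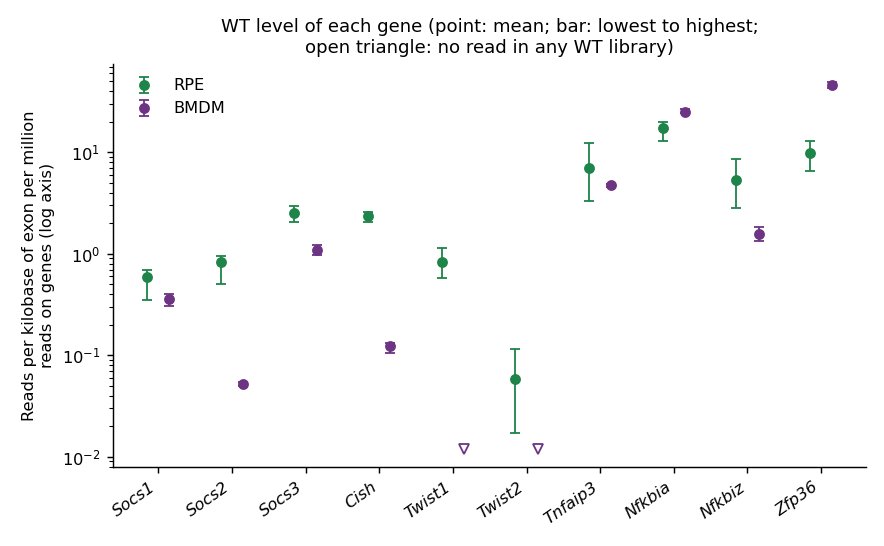
Level of each gene in B6 WT RPE and BMDMs on a log axis, in RPKM; points are means and bars run from the lowest to the highest library. *Zfp36*, at 46.4 in BMDMs and 9.92 in RPE, and *Nfkbia*, at 25.2 and 17.4, lie at the top in both tissues, and open triangles mark *Twist1* and *Twist2* in BMDMs, where they had 0 reads.

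*Socs3* (chromosome 11, 117966079 to 117970047, minus strand, GRCm38), which encodes an inhibitor of gp130 receptor signaling through STAT3, was the 1 gene of the 9 tested in RPE that passed in a knockout line. B6 WT RPE held 205, 162, 194, 224, 197 and 165 normalized counts, whereas *Mertk*-/-V1 RPE held 442, 458, 712, 407, 388 and 1184. All 6 *Mertk*-/-V1 libraries lay above the highest B6 WT library, 1 of them far above the others. *Socs3* rose 2.87-fold in *Mertk*-/-V1 (log2 fold change 1.52 ± 0.24 SE, 95% confidence interval 1.01 to 2.03, adjusted p = 0.00561, limma on log2 of the value plus 1, both groups n = 6). Of the 18832 genes tested in RPE 0.388% passed an adjusted p under 0.05 in this comparison, and the groups did not overlap for 1.09%.

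The *Socs3* means of the other lines lay between these, and 1 *Mertk*-/-V3 library was above the lowest *Mertk*-/-V1 libraries. The 3 libraries labelled *Mertk*-/-V2 held 227, 350 and 324 normalized counts of *Socs3*, and the 3 *Mertk*-/-V3 libraries 270, 243 and 427. All 6 lay above the highest B6 WT library, the lowest of them at 227 against 224. The log2 differences from B6 WT were 0.64 (0.01 to 1.26) in *Mertk*-/-V2 and 0.68 (0.05 to 1.30) in *Mertk*-/-V3, neither past the adjusted threshold (adjusted p = 0.910 and 0.449). In these comparisons 0.069% and 0.069% of genes passed the threshold, and 5.66% and 4.32% had groups that did not overlap. With the 3 lines averaged, *Socs3* differed from B6 WT by 0.94 ± 0.21 (adjusted p = 0.129), and all 12 knockout libraries lay above all 6 B6 WT libraries, where 0.127% of genes passed the threshold and 0.127% had groups that did not overlap. DESeq2 gave an adjusted p of 0.00714 for that average, and without *Mertk*-/-V1 replicate 6 limma gave 0.0324. With the replicate number as a block, a pairing that the libraries did not establish, the average was 0.98 (adjusted p = 0.0191). *Mertk*-/-V1 exceeded the mean of the other lines by 0.87 (0.36 to 1.38, adjusted p = 0.282, in a comparison where 0.207% of genes passed), with 4 of its 6 libraries above all 6 of theirs, and by 0.82 with the block (adjusted p = 0.054). This difference passed in 3 of 28 alternative fits. These were DESeq2 (0.96, adjusted p = 0.0392), limma with array weights (0.89, 0.000929) and limma with B6 WT and *Mertk*-/-V1 replicates 1 to 3 (0.80, 0.0417). All comparisons with B6 WT share the same B6 WT libraries.

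The rise of *Socs3* in *Mertk*-/-V1 RPE passed the threshold with any 1 of the 18 RPE libraries left out (adjusted p = 0.00380 to 0.0203). Within replicates 1 to 3 the log2 difference was 1.49 (adjusted p = 0.0633) and within replicates 4 to 6 it was 1.56 (adjusted p = 0.562), and with the set of replicates as a term it passed (adjusted p = 0.0180). The *Mertk*-/-V1 library with 1184 counts of *Socs3* had the lowest RPE marker sum of all, 197365, and a rod sum of 514786. That with 712 had a sum of 6 neutrophil markers of 1053, against 26.2 to 117 in B6 WT. The RPE marker sum was 503293 to 864015 in B6 WT and 197365 to 632068 in *Mertk*-/-V1 RPE, and of 8 markers 4 were lower at an unadjusted p under 0.05 and 0 at the adjusted one. Of 10 macrophage markers 3 passed the adjusted test, all higher (*C1qa* 1.04, *C1qb* 1.02 and *Fcgr1* 1.13 on the log2 scale), while the summed macrophage level was 7851 to 13166 in B6 WT and 6802 to 12340 in *Mertk*-/-V1. The sum of 12 immediate early and handling response genes was 5372 to 11036 in B6 WT and 7391 to 19941 in *Mertk*-/-V1, with 6 of 12 higher at the unadjusted and 0 at the adjusted p. The sum of 5 Mueller glia markers was lower in all 6 *Mertk*-/-V1 libraries (88996 to 136155) than in all B6 WT libraries (136671 to 157346), although the median log2 difference of the 5 was 0.35. Sums of 7 mesenchymal and 6 endothelial markers averaged 39108 and 4859 in *Mertk*-/-V1 against 29268 and 3577 in B6 WT, with overlapping ranges, and none of these 18 markers passed the adjusted test. The part of all these markers in the *Socs3* difference was not tested.

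**Figure D2:**
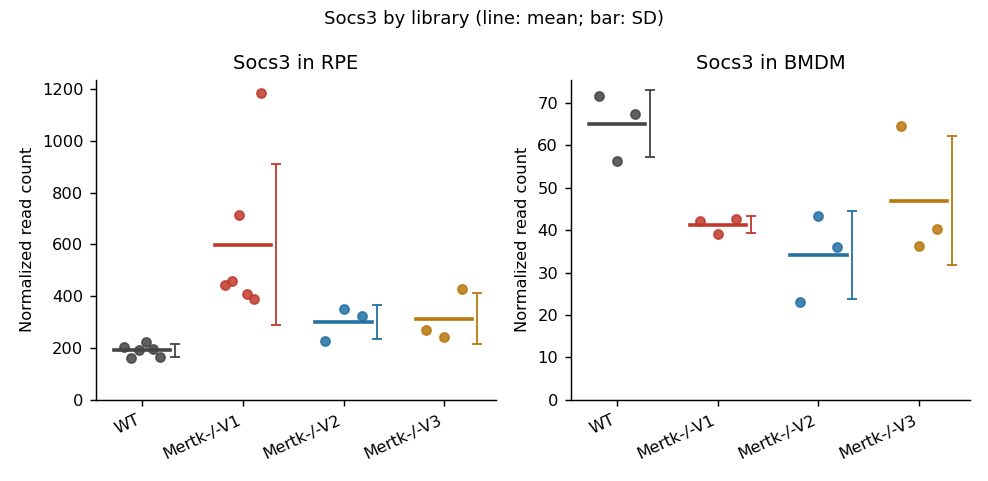
*Socs3* in every library, in normalized counts, for RPE and BMDMs by genotype; points are libraries, lines group means and bars the SD. In RPE the 6 *Mertk*-/-V1 libraries sit between 388 and 1184 and the 6 B6 WT libraries between 162 and 224, whereas in BMDMs, drawn on an axis of its own, all libraries hold between 23.0 and 71.5.

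In BMDMs *Socs3* was measured at far lower counts, and its knockout means lay below B6 WT without passing the limma test. B6 WT BMDMs held 71.5, 56.2 and 67.4 normalized counts, those of *Mertk*-/-V1 42.3, 39.0 and 42.7, those of *Mertk*-/-V2 23.0, 43.4 and 36.1, and *Mertk*-/-V3 64.4, 36.2 and 40.2, from 19 to 87 reads a library. The *Mertk*-/-V1 and *Mertk*-/-V2 libraries lay below all B6 WT libraries and 1 *Mertk*-/-V3 library did not. Groups did not overlap, in either direction, for 30.9% of genes in *Mertk*-/-V1 and 22.7% in *Mertk*-/-V2 BMDMs. The log2 differences from B6 WT were -0.64, -0.95 and -0.50 in the order of the lines, with adjusted p = 0.149, 0.0508 and 0.363, and -0.69 for the mean of the lines (adjusted p = 0.0627). That mean passed with DESeq2 (adjusted p = 0.0365), array weights (0.0215) and quantile normalization (0.0473), and *Mertk*-/-V2 passed with a pseudocount of 5 (0.0488) and quantile normalization (0.0363). The *Mertk*-/-V2 difference passed when 1 of 3 libraries was removed (without *Mertk*-/-V2 replicate 2 or 3 or *Mertk*-/-V3 replicate 1, adjusted p = 0.0395, 0.0452 and 0.0389).

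The effect of *Mertk*-/-V1 on *Socs3* differed between the tissues. It was larger in RPE than in BMDMs by 2.33 on the log2 scale in an edgeR quasi-likelihood model with an interaction term (adjusted p = 0.0107), with 0.464% of 12513 genes past the threshold. The call held in 27 of 30 fits that left out 1 library. Without BMDM B6 WT replicate 1 or *Mertk*-/-V1 replicate 1 or 2 the adjusted p was 0.0519, 0.0511 and 0.0537. In *Mertk*-/-V2 and *Mertk*-/-V3 the tissue differences of *Socs3* were 1.56 (adjusted p = 0.164) and 1.23 (adjusted p = 0.792), in comparisons where 0.168% and 0.048% of genes passed. Over all 30 libraries no other of the 7 genes measured well enough in both tissues passed in any line. With B6 WT and *Mertk*-/-V1 RPE limited to replicates 1 to 3, *Socs3* also passed in *Mertk*-/-V2 (1.60, adjusted p = 0.0195) and *Mertk*-/-V3 (1.28, 0.0245). In that edgeR fit *Zfp36* passed in *Mertk*-/-V1 (1.35, adjusted p = 0.00487) and *Mertk*-/-V3 (-0.70, 0.0410). Each of these passed in only 1 of 35 alternative fits. For *Zfp36* the *Mertk*-/-V1 difference was 1.15 (adjusted p = 0.349) and for *Cish* 1.18 (adjusted p = 0.411).

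The other SOCS genes did not pass in RPE. *Socs1*, whose product blocks JAK kinases downstream of interferon receptors, had a lowest, median and highest value of 25.1, 47.5 and 52.5 normalized counts in B6 WT and 36.4, 47.1 and 54.3 in *Mertk*-/-V1, with 45.9, 39.9 and 64.5 in *Mertk*-/-V2 and 33.5, 68.6 and 46.3 in *Mertk*-/-V3. The groups overlapped, and the *Mertk*-/-V1 difference was 0.07 (-0.38 to 0.52 on the log2 scale). *Cish*, which encodes the STAT5-induced inhibitor CIS, had 313, 406 and 465 in B6 WT and 315, 552 and 705 in *Mertk*-/-V1 as lowest, median and highest, with 651, 621 and 447 in *Mertk*-/-V2 and 243, 403 and 557 in *Mertk*-/-V3. These groups overlapped too, and the differences from B6 WT were 0.35, 0.53 and -0.04. *Socs2*, an inhibitor of growth hormone signaling, ranged from 128 to 377 over the 18 RPE libraries, with differences of 0.33, 0.37 and 0.14 and no adjusted p below 0.786. *Cish* overlaps the antisense gene Gm17040, which had a mean of 3.51 normalized counts in RPE, and strand use in the counting is not given in the sources used here.

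In BMDMs *Socs1* held 18.1, 23.6 and 22.5 normalized counts in B6 WT and 36.0, 30.9 and 30.5 in *Mertk*-/-V3. The 3 *Mertk*-/-V3 libraries lay above all others, though 1 *Mertk*-/-V2 library came close at 30.3. *Mertk*-/-V3 BMDMs did not overlap B6 WT for 25.4% of genes and did not overlap the other knockout lines for 13%. The *Mertk*-/-V3 difference from B6 WT was 0.59 (0.06 to 1.11, adjusted p = 0.260), against 0.12 in *Mertk*-/-V1 and 0.15 in *Mertk*-/-V2. *Cish* held 14.0, 17.1 and 17.6 in B6 WT, and 10.9, 6.05 and 10.4 in *Mertk*-/-V2, which lay below B6 WT, a separation in either direction found for 22.7% of genes. It held 16.4, 5.00 and 7.87 in *Mertk*-/-V1 and 14.2, 8.53 and 12.9 in *Mertk*-/-V3, which overlapped it. At 5 to 21 reads a library its differences of -0.81, -0.80 and -0.44 did not pass (adjusted p = 0.243, 0.275 and 0.635). *Socs2* averaged 7.95 normalized counts over the BMDM libraries, below the minimum mean of 10 for testing.

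Twist1, a basic helix-loop-helix repressor of NF-kappaB target genes, had reads only in RPE. *Twist1* had 25.8, 34.7 and 44.6 normalized counts as lowest, median and highest in B6 WT RPE and 36.0, 54.1 and 62.0 in *Mertk*-/-V1, and 54.8, 43.3 and 86.0 in *Mertk*-/-V2 and 31.2, 34.9 and 57.1 in *Mertk*-/-V3. Of the 6 *Mertk*-/-V1 libraries 5 lay above the highest B6 WT library and 1 did not. The log2 differences were 0.57 (0.12 to 1.02) in *Mertk*-/-V1 and 0.76 (0.21 to 1.30) in *Mertk*-/-V2, with intervals not adjusted for the number of genes, and 0.20 in *Mertk*-/-V3. None passed (adjusted p = 0.551, 0.756 and 0.736). *Twist2*, the paralog of *Twist1*, had 1 to 15 reads per RPE library and a mean of 6.00 normalized counts, and was not tested. *Twist2* overlaps the antisense gene Gm29100, with a mean of 3.40 in RPE.

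*Zfp36* (chromosome 7, 28376784 to 28380253, minus strand), which encodes tristetraprolin, fell in BMDMs of 2 lines, whereas its level in the third overlapped that of B6 WT. B6 WT BMDMs held 3501, 3037 and 3314 normalized counts, *Mertk*-/-V1 BMDMs 1762, 1992 and 2155 and those labelled *Mertk*-/-V2 2208, 2285 and 2009. *Mertk*-/-V3 BMDMs held 3680, 3295 and 2986. The *Mertk*-/-V1 and *Mertk*-/-V2 libraries lay below every B6 WT and *Mertk*-/-V3 library, and the last 2 groups overlapped. *Zfp36* was at 59.9% of B6 WT in *Mertk*-/-V1 (log2 fold change -0.74 ± 0.09, -0.92 to -0.56, adjusted p = 0.00023) and at 66.0% in *Mertk*-/-V2 (-0.60, -0.78 to -0.42, adjusted p = 0.00179). In *Mertk*-/-V3 the difference was 0.01 (-0.17 to 0.20, adjusted p = 0.961). Of 13420 genes tested in BMDMs 7.07%, 4.61% and 1.17% passed in the respective lines. Groups did not overlap B6 WT for 30.9% in *Mertk*-/-V1 and 22.7% in *Mertk*-/-V2.

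The difference between the lines was itself tested, in a comparison chosen after the values were seen. *Mertk*-/-V3 exceeded the mean of *Mertk*-/-V1 and *Mertk*-/-V2 in *Zfp36* by 0.68 (0.52 to 0.84, adjusted p = 0.00013), where 5.42% of genes passed and 13% had groups that did not overlap. *Mertk*-/-V1 lay below the mean of the other lines by 0.45 (adjusted p = 0.0063, 0.0584 without *Mertk*-/-V1 replicate 1), where 0.991% passed. The calls against B6 WT in *Mertk*-/-V1 and *Mertk*-/-V2 and for *Mertk*-/-V3 against the other lines held in 12 of 12 fits that left out 1 library. In the same libraries *Fos*, the immediate early gene, held 3038, 2377 and 2793 in B6 WT and 3025, 2235 and 1829 in *Mertk*-/-V3, but 389, 490 and 471 in *Mertk*-/-V1 and 520, 476 and 483 in *Mertk*-/-V2. *Fos* was the gene most like *Zfp36* over the 12 BMDM libraries (Pearson r = 0.975), with *Eif1b* next (0.962). *Zfp36* overlaps the antisense gene Gm44710, which averaged 18.3 normalized counts in BMDMs, and without strand the reads of such a pair cannot be told apart.

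**Figure D3:**
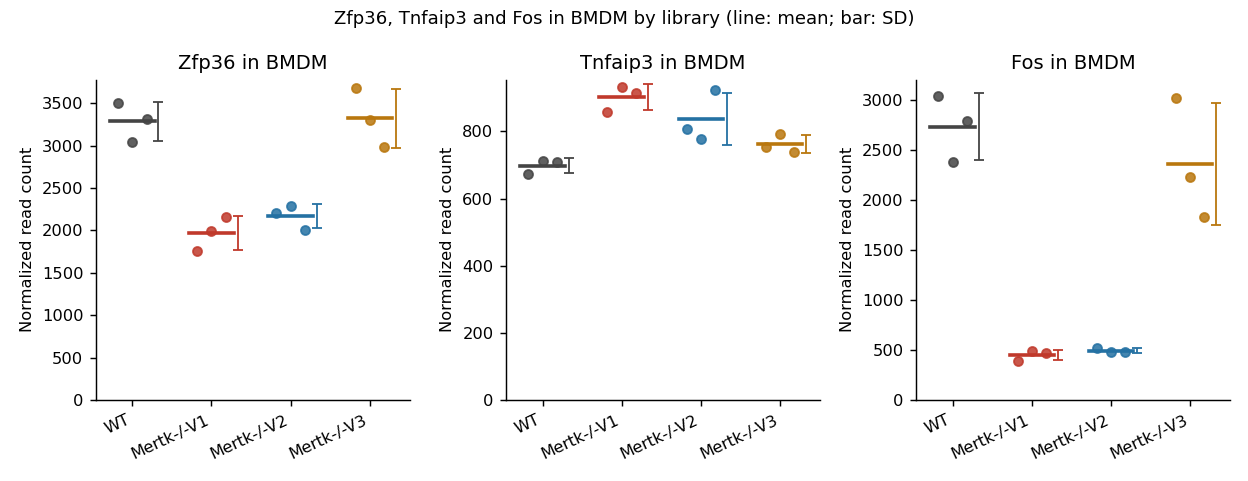
*Zfp36*, *Tnfaip3* and *Fos* in every BMDM library by genotype, in normalized counts; points are libraries, lines group means and bars the SD. The *Zfp36* points of *Mertk*-/-V1 and *Mertk*-/-V2 sit between 1762 and 2285 and those of B6 WT and *Mertk*-/-V3 between 2986 and 3680, while *Tnfaip3* is lowest in B6 WT, at 672 to 712.

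*Tnfaip3* (chromosome 10, 19000910 to 19015657, minus strand), which encodes the ubiquitin-editing enzyme A20, rose in BMDMs of the same lines by a smaller amount. B6 WT held 672, 712 and 709 normalized counts, *Mertk*-/-V1 858, 934 and 913, *Mertk*-/-V2 808, 777 and 924 and *Mertk*-/-V3 755, 793 and 740. All 9 knockout libraries lay above all 3 B6 WT libraries, a separation in either direction found for 6.06% of genes. *Tnfaip3* rose 1.29-fold in *Mertk*-/-V1 (0.37 ± 0.07, adjusted p = 0.00602) and 1.20-fold in *Mertk*-/-V2 (0.26, adjusted p = 0.0442), and in *Mertk*-/-V3 its difference was 0.13 (-0.01 to 0.27, adjusted p = 0.369). The mean of the lines was 0.25 above B6 WT (adjusted p = 0.0168), in a comparison where 6.65% of genes passed. It lost the threshold without B6 WT replicate 1 or 2 (adjusted p = 0.128 and 0.0795). The *Mertk*-/-V1 call held in 12 of 12 fits that left out 1 library, whereas the *Mertk*-/-V2 call was lost in 11 of 12 (adjusted p = 0.0536 to 0.159, all but without *Mertk*-/-V2 replicate 2). *Mertk*-/-V3 was below the mean of *Mertk*-/-V1 and *Mertk*-/-V2 by 0.19 (adjusted p = 0.0757), and *Mertk*-/-V1 above the mean of the other lines by 0.18 (adjusted p = 0.246).

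The remaining NF-kappaB inhibitors did not pass in BMDMs. *Nfkbia* held 876, 806 and 806 normalized counts in B6 WT and 897, 900 and 891 in *Mertk*-/-V1, which lay just above B6 WT, with 803, 817 and 909 in *Mertk*-/-V2 and 771, 694 and 822 in *Mertk*-/-V3. A separation of *Mertk*-/-V1 from B6 WT, in either direction, was found for 30.9% of genes. The *Nfkbia* differences were 0.11, 0.02 and -0.12 (adjusted p = 0.350, 0.879 and 0.403). *Nfkbiz*, a nuclear IkappaB protein that also activates some NF-kappaB targets, held 150, 135 and 192 in B6 WT and 112, 113 and 141 in *Mertk*-/-V2, with overlapping values. Its differences were -0.20, -0.38 and -0.14, and the *Mertk*-/-V2 adjusted p was 0.137.

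In RPE none of these 4 genes passed against B6 WT. *Nfkbia* had 509, 804 and 877 normalized counts as lowest, median and highest in B6 WT and 498, 852 and 1444 in *Mertk*-/-V1, and held 851, 690 and 883 in *Mertk*-/-V2 and 550, 530 and 557 in *Mertk*-/-V3. The *Mertk*-/-V3 values lay close together and inside the B6 WT range, with a difference of -0.40 (adjusted p = 0.513). *Nfkbiz* had 345, 782 and 1217 in B6 WT and 380, 1124 and 1623 in *Mertk*-/-V1, and its *Mertk*-/-V1 difference was 0.51 (-0.27 to 1.28, adjusted p = 0.843). *Zfp36* had 559, 940 and 1275 in B6 WT and 409, 1209 and 2047 in *Mertk*-/-V1, a difference of 0.25 (-0.45 to 0.96). *Tnfaip3* had 670, 1032 and 2154 in B6 WT and 917, 1120 and 3398 in *Mertk*-/-V1, a difference of 0.31 (-0.52 to 1.14). In the libraries labelled *Mertk*-/-V2 *Nfkbiz* held 478, 494 and 836, *Zfp36* 880, 616 and 1037 and *Tnfaip3* 1413, 1191 and 954. *Mertk*-/-V3 RPE held 814, 436 and 492 of *Nfkbiz*, 722, 514 and 776 of *Zfp36* and 2512, 1276 and 691 of *Tnfaip3*. All of these groups overlapped B6 WT. The differences of *Nfkbiz* were -0.16 and -0.22 in those lines, of *Zfp36* -0.08 and -0.40 and of *Tnfaip3* 0.00 and 0.15. Calls for *Mertk*-/-V1 against the mean of the other lines, and for *Mertk*-/-V3, depended on the setting. Limma over all libraries gave *Mertk*-/-V1 above the other lines by 0.32 for *Nfkbia*, 0.70 for *Nfkbiz* and 0.50 for *Zfp36*, without a call. They passed with replicates 1 to 3 (0.76, 1.24 and 1.20), array weights (0.62, 1.30 and 1.18) and the block (0.66, 1.23 and 1.03). Adjusted p was 0.000719 to 0.0154, each gene passing in 3 of 28 alternative fits. With B6 WT and *Mertk*-/-V1 limited to replicates 1 to 3 *Nfkbia* (-0.65, adjusted p = 0.0151) and *Zfp36* (-0.77, adjusted p = 0.0283) passed as lower in *Mertk*-/-V3. With array weights *Nfkbia* (-0.57, adjusted p = 0.000525), *Nfkbiz* (-0.77, adjusted p = 0.00135) and *Zfp36* (-0.89, adjusted p = 0.000233) did, and so they did with the replicate number as a block (-0.74, -0.75 and -0.94, adjusted p = 0.00751, 0.0353 and 0.00925), although the numbers did not pair the *Mertk*-/-V3 libraries. The *Mertk*-/-V1 interval of *Zfp36* in RPE does not hold the fall of 0.74 on the log2 scale measured in *Mertk*-/-V1 BMDMs, whereas that of *Tnfaip3* holds both no change and the rise of 0.37 there. These intervals leave out the error of the BMDM values, and over all libraries the tissue difference of *Zfp36* did not pass (1.15, adjusted p = 0.349, edgeR interaction term).

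The spread of these 4 genes within RPE groups moved with other transcripts of the same libraries. After genotype means were removed, r with the summed rod level was 0.945 for *Tnfaip3*, -0.848 for *Zfp36*, -0.756 for *Nfkbiz* and -0.740 for *Nfkbia*. With the immediate early sum it was 0.841 for *Zfp36*, 0.816 for *Nfkbia*, 0.797 for *Nfkbiz* and -0.370 for *Tnfaip3*. The values below keep the genotype differences. Over the 18 RPE libraries *Tnfaip3* followed the summed rod level (Pearson r = 0.929, adjusted permutation p = 0.00012, Spearman rho = 0.884, adjusted permutation p = 0.00018, both two-sided, adjusted over 18 relations and at the smallest raw p that 100000 permutations can give, 1e-05). The correlation was 0.894 without the 2 libraries farthest from the median rod level, 0.629 within B6 WT and *Mertk*-/-V1 replicates 1 to 3 and 0.986 within replicates 4 to 6. *Zfp36* ran the other way with rods (r = -0.772, rho = -0.789, adjusted permutation p = 0.000792 and 0.00072, -0.705 without the 2 farthest libraries), but at -0.24 within replicates 1 to 3 against -0.88 within replicates 4 to 6. *Nfkbiz* (r = -0.658, rho = -0.672, adjusted permutation p = 0.00921 and 0.00741) and *Nfkbia* (r = -0.606, rho = -0.633, adjusted permutation p = 0.0173 and 0.0135) were also negatively correlated with the rod sum. They gave -0.562 and -0.556 without the 2 farthest libraries, -0.546 and -0.02 within replicates 1 to 3 and -0.661 and -0.531 within replicates 4 to 6. *Cish* was as well (r = -0.630, rho = -0.717, adjusted permutation p = 0.0127 and 0.00354, -0.667 without the 2 farthest libraries), at -0.143 and -0.671 within the sets. With the sum of the immediate early genes *Nfkbiz* gave r = 0.835 and rho = 0.841 (adjusted permutation p = 0.00012 and 0.00036), *Zfp36* r = 0.824 and rho = 0.814 (0.00012 and 0.00048) and *Nfkbia* r = 0.760 and rho = 0.754 (0.000792 and 0.0009). Without the 2 libraries farthest from the median of that sum they gave 0.802, 0.725 and 0.664, and within replicates 1 to 3 and 4 to 6 0.691 and 0.624, 0.842 and 0.406, and 0.631 and 0.753. All 3 held the same sign in both sets, with 6 libraries each. *Socs3* gave r = 0.439 and rho = 0.360 with that sum (adjusted permutation p = 0.121 and 0.257), and 0.829 and 0.867 within the 2 sets of replicates. Each set holds B6 WT and *Mertk*-/-V1 libraries, so the genotype difference enters these values. After the genotype means were removed, r over the 18 libraries was 0.105. The permutations shuffled libraries across genotypes and sets of replicates, so differences between these enter the p-values. Depth, cell mixture and base composition are shared by such values, and the part of each was not tested.

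**Figure D4:**
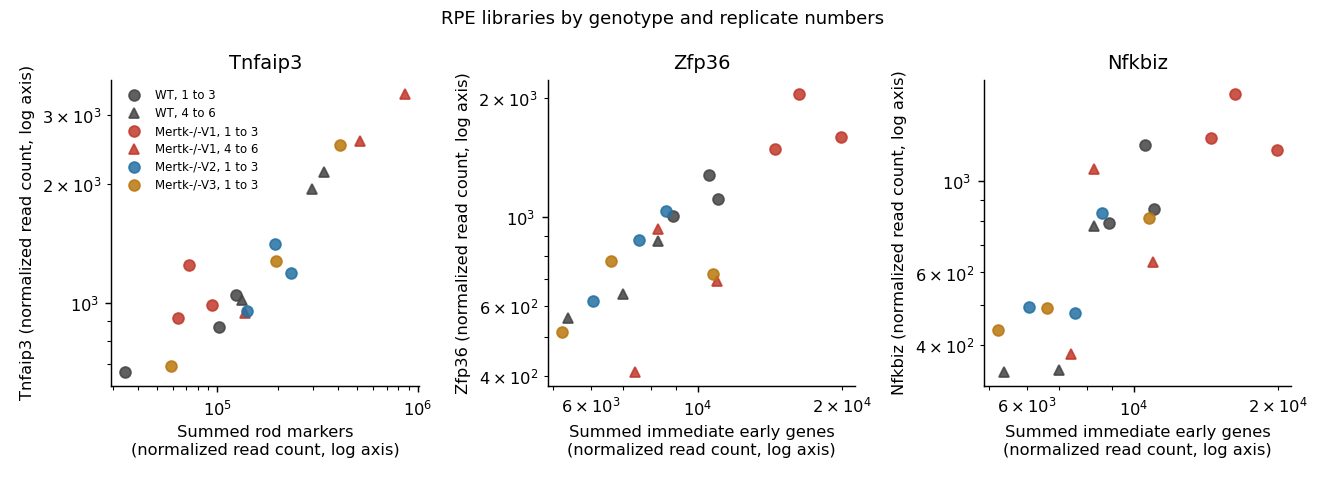
*Tnfaip3* against the summed rod markers, and *Zfp36* and *Nfkbiz* against the summed immediate early genes, in normalized counts on log axes over the 18 RPE libraries, colored by genotype and shaped by replicates 1 to 3 or 4 to 6. *Tnfaip3* rises with the rod sum (r = 0.929), and *Zfp36* (0.824) and *Nfkbiz* (0.835) rise with the immediate early sum.

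Among themselves *Nfkbia*, *Nfkbiz* and *Zfp36* varied together in RPE. Over the 18 libraries Pearson r was 0.91 for *Nfkbia* and *Zfp36*, 0.90 for *Nfkbiz* and *Zfp36* and 0.79 for *Nfkbia* and *Nfkbiz*, as a description of libraries that share their depth and cell mixture. In BMDMs *Tnfaip3* and *Zfp36* ran opposite ways (-0.82), but after the genotype means were removed this was -0.18. The genes most like each in RPE were *Cebpd* (0.872) and *Slc15a3* (0.868) for *Socs3*, *Map3k8* (0.898) and *Plscr2* (0.888) for *Cish*, and *Suv39h2* and *Dixdc1* (both 0.971) for *Tnfaip3*. They were *Tnf* (0.932) and *Slfn2* (0.925) for *Nfkbia*, *Lyn* (0.956) and *Cxcl16* (0.953) for *Nfkbiz*, and *Tiparp* (0.967) and *Dusp1* (0.961) for *Zfp36*. For *Socs1* they were 2510016D11Rik (0.721) and *H2-Ab1* (0.720), for *Socs2* 1110020A21Rik (0.858) and *Mstn* (0.824), and for *Twist1* *Adamts12* (0.845) and *Arhgap9* (0.819). In BMDMs *Tnfaip3* was most like *Tns3* (0.951) and *Cast* (0.939), and *Socs3* most like *Mrps7* (0.919) and *Prorsd1* (0.905).

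Counted together, 1 of the 9 genes tested in RPE passed in *Mertk*-/-V1 and 0 in each of the other lines (0.388%, 0.069% and 0.069% of all genes), with 2, 2 and 1 at an unadjusted p under 0.05, which were *Socs3* in every line and *Twist1* in *Mertk*-/-V1 and *Mertk*-/-V2. The share of all genes at that unadjusted p was 6.81%, 5.47% and 11.1%. The median log2 difference of the 9 was 0.33 in *Mertk*-/-V1 against 0.02 over all genes tested, 0.17 against 0.02 in *Mertk*-/-V2 and 0.12 against -0.01 in *Mertk*-/-V3. In BMDMs 2 of the 7 tested passed in *Mertk*-/-V1, 1 up and 1 down, 2 in *Mertk*-/-V2 and 0 in *Mertk*-/-V3 (7.07%, 4.61% and 1.17% of all genes), with medians of -0.20, -0.38 and -0.12 against 0.00 over all genes. The groups did not overlap for 4, 4 and 2 of the 7, where this held for 30.9%, 22.7% and 25.4% of all genes. The 0 calls of limma in *Mertk*-/-V2 and *Mertk*-/-V3 RPE were also 0 by edgeR and by DESeq2.

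**Figure D5:**
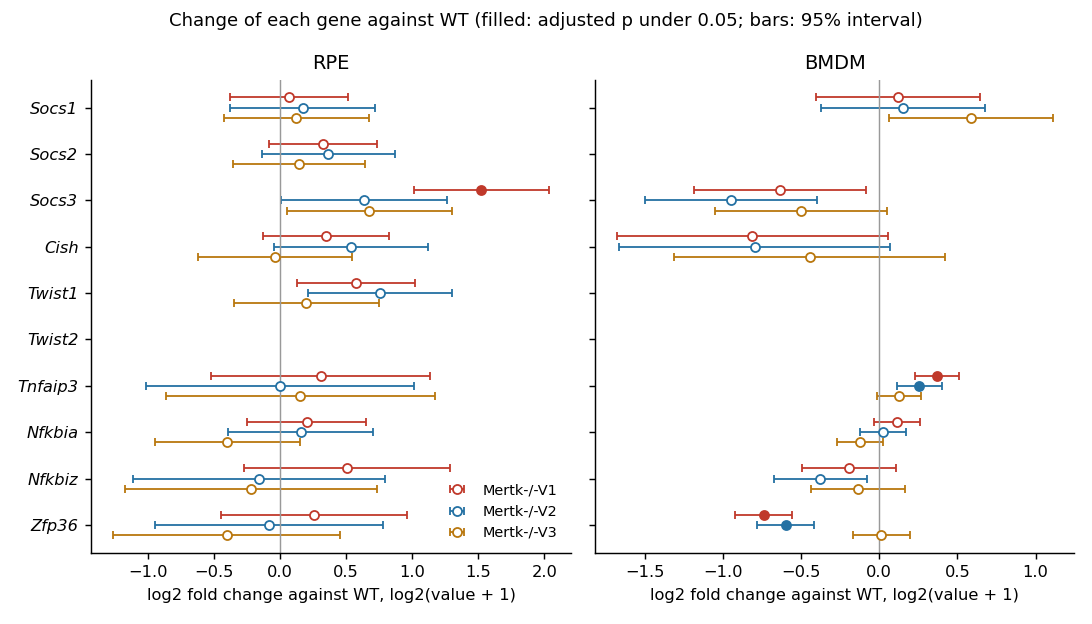
Log2 difference from B6 WT of each tested feedback gene in each line and tissue, with 95% confidence intervals; filled points have an adjusted p under 0.05. *Socs3* in *Mertk*-/-V1 RPE (1.52), and *Zfp36* and *Tnfaip3* in *Mertk*-/-V1 (-0.74 and 0.37) and *Mertk*-/-V2 BMDMs (-0.60 and 0.26), are filled.

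The genes around this feedback arm were read from lists of pathway members. In *Mertk*-/-V1 RPE *Stat2* rose (0.46, adjusted p = 0.0275), which transmits interferon signals, and of 13 other JAK-STAT inhibitors *Usp18* rose (0.83, adjusted p = 0.0332), which restrains the type I interferon receptor. None of 16 receptors and kinases of the pathway passed, *Jak3* (0.53) and *Il10ra* (0.78) having the lowest p. None of 8 NF-kappaB subunits and kinases, 18 other NF-kappaB inhibitors, 6 other mRNA decay factors or 10 NF-kappaB target cytokines passed. The lowest p belonged to *Chuk* (-0.19) and *Rel* (0.31), to *Nfkbid* (0.75) and *Tnip2* (0.17), to *Rc3h2* (0.08) and *Rc3h1* (0.02), and to *Cxcl10* (2.40, adjusted p = 0.154) and *Ccl3* (2.06). Of the 12 immediate early and handling response genes, where none passed either, *Atf3* stood at 1.72 and *Fosb* at 1.83 (adjusted p = 0.0611 and 0.0729). Of 5 TAM receptors and ligands *Mertk* fell and so did *Tyro3* (-1.31, adjusted p = 0.00131). In *Mertk*-/-V2 RPE no gene of these lists passed, and in *Mertk*-/-V3 RPE *Mertk* alone did.

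In BMDMs the immediate early and handling response genes were the list with most calls. In *Mertk*-/-V1 7 of 12 fell, among them *Dusp1* (-2.98), *Fos* (-2.60) and *Fosb* (-4.14), and *Atf3* rose (0.38), where 7.07% of all genes passed. In *Mertk*-/-V2 5 fell, *Dusp1* (-2.93), *Fos* (-2.46), *Fosb* (-3.86), *Jun* (-0.41) and *Btg2* (-0.81), and *Atf3* rose (0.29), against 4.61% of all genes, whereas in *Mertk*-/-V3 0 of 12 passed, against 1.17%. The summed level of the list was 15763 to 17215 in B6 WT, 10076 to 10814 in *Mertk*-/-V1, 10851 to 11262 in *Mertk*-/-V2 and 14695 to 17847 in *Mertk*-/-V3, and its part in the *Zfp36* values was not tested. *Il10ra*, the IL-10 receptor subunit upstream of *Socs3*, fell in *Mertk*-/-V1 (-0.41) and *Mertk*-/-V2 (-0.42), and *Il10rb* by less (-0.17 and -0.16), while *Tyk2* rose in *Mertk*-/-V1 (0.26). On the NF-kappaB side *Relb* (0.58) and the inhibitors *Nfkbid* (0.54) and *Tnip1* (0.21) rose in *Mertk*-/-V1, as did the targets *Ccl2* (0.44) and *Icam1* (0.20). *Ccl2* also rose in *Mertk*-/-V2 (0.45). In *Mertk*-/-V3 BMDMs *Mertk* (-1.94) was the only gene of these lists to pass, and of the STATs, the other JAK-STAT inhibitors and the other mRNA decay factors none passed against B6 WT in any line.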

How the data were processed

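Tissue and genotype labels defined the groups. The authors used btrim for trimming, STAR for alignment (GRCm38) and DESeq2 for size factors. The read counter, annotation, strand setting and versions are not given in the sources used here. For each tissue they deposited a table of gene signal, the count of a gene divided by the size factor of its library. Divided by the value of 1 read, 100% of values were whole (tolerance 0.001), so whole reads were recovered for edgeR and DESeq2. Intervals of log2 differences are limma intervals and rest on the spread between libraries, whereas limits on 0 reads cover counting error only. No sample column was unused (0).

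The main test was limma 3.58.1 (lmFit, eBayes with a trend, R 4.3.3) on log2 of the value plus 1 for genes with a mean of at least 10, all genotypes of a tissue in one model, Benjamini-Hochberg adjusted over 18832 genes in RPE and 13420 in BMDMs. A fold change is on the log2(value + 1) scale, which understates changes of low genes. Tissue differences were interaction terms in edgeR 4.0.16 (quasi-likelihood, TMM). Alternatives were a pseudocount of 5, no filter, only the groups compared, edgeR, DESeq2 1.42.0, quantile normalization, array weights, a log2 fold threshold of 1.25, the replicate number as a block, 1 library left out, and subsets of RPE replicates. The contrast of *Mertk*-/-V3 with the other lines was added after values were seen. Python 3.11.15, scipy 1.17.1 and matplotlib 3.10.9 served for correlations and figures. Positions came from GENCODE mouse release 21, which matched 55394 of 55573 identifiers. The fits were tested on simulated data.

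The 10 genes and the lists were chosen with earlier results of these data known. Named beside them were all list genes past the adjusted p against B6 WT or the lowest p of a list without one, and the genes most correlated with each, 2 for each gene, except an item that is not reported here. Deviations from the group means of same-numbered *Mertk*-/-V1 and B6 WT RPE libraries correlated at r = 0.119 to 0.724 in 6 pairs. Differently numbered ones gave -0.711 to 0.744, and 1 of the 6 B6 WT libraries was most like its own number. The values therefore do not show that the numbers pair the libraries, and the block is an alternative setting only. With the block *Socs3* passed as before (adjusted p = 0.00901).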

Additional observations from a re-analysis of the deposited data

Results flagged for a closer look

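In groups of 4 to 10 libraries 20 combinations of gene and group were examined for a library that stood apart from the rest, and chance gives about 1 such case in 20. *Socs1* in B6 WT RPE had 25.1 normalized counts in replicate 6, below the other 5 libraries. *Twist2* in *Mertk*-/-V1 RPE had 18.2 in replicate 5, above the other 5, from a gene with 1 to 15 reads a library. The *Mertk*-/-V1 effect on *Socs3* differed between tissues by a log2 value of 2.33, RPE less BMDMs (edgeR adjusted p = 0.0107), higher in 6 of 6 RPE libraries and lower in 3 of 3 BMDM libraries than every B6 WT library of that tissue. *Mertk*-/-V1 and B6 WT did not overlap for 1.09% of genes in RPE but for 30.9% in BMDMs.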

How the results depend on the processing

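Most values kept their side of the threshold. Of those from fits with 1 library left out, 2080 were unchanged in call, 9 gained and 17 lost a call, and of those under other settings 919, 49 and 6. The number of the feedback genes called in *Mertk*-/-V1 RPE went from 1 to 0 within replicates 1 to 3 and to 0 within 4 to 6. In RPE array weights gave 2 calls for *Mertk*-/-V2, 5 for *Mertk*-/-V3, 2 for the mean of the lines, 4 for *Mertk*-/-V1 against the other lines and 7 for *Mertk*-/-V3 against them, where limma without weights gave 0. With the replicate block these were 3 for *Mertk*-/-V3, 1 for the mean of the lines, 3 for *Mertk*-/-V1 against the others and 2 for *Mertk*-/-V3 against them. With RPE limited to replicates 1 to 3 they were 2 for *Mertk*-/-V3 against B6 WT, 4 and 3. DESeq2 gave 1 for the mean of the lines and 1 for *Mertk*-/-V1 against the others. In BMDMs the fold threshold left 0 of 2 calls in *Mertk*-/-V1, 0 of 2 in *Mertk*-/-V2, 0 of 2 for the mean and 0 of 1 in both comparisons between lines. *Mertk*-/-V2 had 1 call with no filter, 1 with array weights, 1 with the replicate block and 1 with only the groups compared, since *Tnfaip3* was lost. Tissue differences had 2, 1 and 2 calls for the 3 lines with RPE replicates 1 to 3, against 1, 0 and 0. Leaving out 1 library gave 1 to 1, 0 to 0, 0 to 0 and 0 to 1 calls for the 3 lines and their mean in RPE and 0 to 0 between lines, and 2 to 2, 1 to 3, 0 to 0 and 1 to 3 in BMDMs, 0 to 2 for *Mertk*-/-V1 and 1 to 2 for *Mertk*-/-V3 against the others, and 0 to 1, 0 to 0 and 0 to 0 for tissue differences. The cause was not tested. Same-numbered libraries deviated together only in *Mertk*-/-V1 and B6 WT RPE, where differently numbered ones reached a higher r (0.744 against 0.724). In *Mertk*-/-V3 RPE the block gave *Nfkbia* -0.74, *Nfkbiz* -0.75 and *Zfp36* -0.94 with calls. In BMDMs *Socs3* and *Cish* rest on 19 to 87 and 5 to 21 reads a library.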
